A study of Mus musculus with 16 samples.

Results

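Serotonin receptor genes were followed in the striatum of risperidone-treated and control mice. The genes were Htr1a, Htr1b, Htr2b, Htr2c, Htr3a, Htr4, Htr5a, Htr6 and Htr7. They are 9 of the 17097 genes on the array that have at least 1 probe set naming that gene alone, and 14 of the 45037 probe sets tested belong to them. Htr1a, Htr2c, Htr4, Htr5a and Htr7 have 2 probe sets each and the other 4 genes have 1. Htr2a, the receptor that risperidone blocks together with the dopamine D2 receptor, is not analysed here.

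The study measured total RNA of the striatum, a forebrain structure that integrates dopamine and serotonin input, on 16 Affymetrix arrays from male mice aged 7 to 8 weeks. The 4 groups, with 4 biological replicates each, were DBA/2J mice (DBA/2JRccHsd) given risperidone, DBA/2J controls, A/J mice (A/JOlaHsd) given risperidone, and A/J controls. Risperidone, an antipsychotic, was injected intraperitoneally at 1 mg/kg once daily for 3 days. Controls are labelled untreated, although the protocol attached to all samples mentions saline injections. Both strains are labelled as inbred substrains, only males were used, and 1 drug dose was given.

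Serotonin reaches the striatum from neurons of the raphe nuclei in the brainstem and acts there through several receptor families. Htr3a encodes a subunit of a cation channel, while the other receptors studied here signal through G proteins. Htr1a, Htr1b and Htr5a couple to inhibitory G proteins that lower cyclic AMP, Htr2b and Htr2c couple to Gq and phospholipase C, and Htr4, Htr6 and Htr7 couple to Gs and raise cyclic AMP. Htr2c is also strongly transcribed in the choroid plexus, the epithelium that makes cerebrospinal fluid and that expresses Ttr at very high levels.

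Some arrays stood apart and are named here because results below rest on them. Over 46 to 49 probe sets that differ between the strains, the share of DBA/2J signal was 87.6% to 101.6% in DBA/2J risperidone arrays and 96.1% to 103.2% in DBA/2J control arrays. In A/J it was 27.9%, 36.2% and 39.1% in risperidone replicates 1, 2 and 4 and 0.584% in risperidone replicate 3, against -2.30% to 0.993% in control arrays. The strain markers of these 3 A/J risperidone arrays thus go against a pure A/J label, and every comparison below that uses A/J risperidone mice includes them. DBA/2J control replicate 4 had the lowest median correlation with the other arrays, 0.976. The tissue label was set against 12 listed striatal projection neuron markers, 10 of them measured. Of these 10, 9 were above the lower quartile of the array in every array. The exception was Drd2, the D2 receptor gene, which was above it in 3 of 16 arrays. All 9 cortex markers measured were also above it in every array. So were 12547 of all 17097 genes, so this check cannot tell striatum from cortex. In such bulk RNA, fewer cells of a type and less RNA per cell cannot be told apart.

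Values are log2 expression levels as deposited, normalized by RMA. Levels are compared between groups within a probe set and not between probe sets. As a measure of detection, each value was set against the lower quartile of its own array, which lay between 4.46 and 4.60. By this measure 11 of the 14 receptor probe sets were above the lower quartile in all 16 arrays. They cover 7 of the 9 genes, where 12547 of all 17097 genes were above it by their highest-mean probe set. The exceptions among the receptors were Htr2b, above the lower quartile in 1 array, and both probe sets of Htr4. Htr4 1443365_PM_at was above it in 14 arrays and Htr4 1427654_PM_a_at in 0, so the values of Htr2b and of that second Htr4 probe set lie among the dimmest probe sets of the array.

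**Figure D1:**
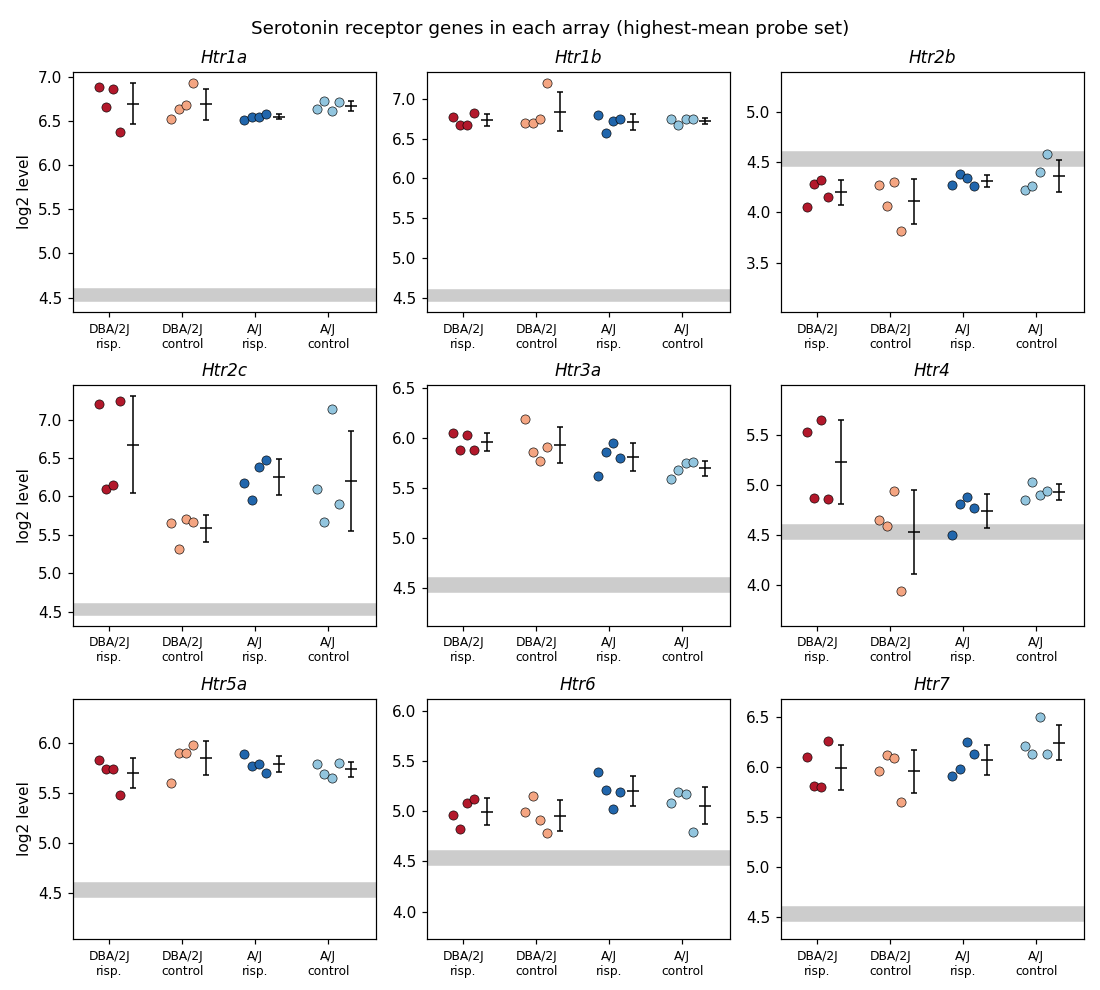
The log2 level (vertical axis) of the 9 receptor genes in each of 16 arrays, by group, with each gene shown by its probe set with the highest mean. Points are arrays, the black bars beside them are the group mean with its SD (n = 4), and the grey band is the range of array lower quartiles, 4.46 to 4.60; the vertical axes differ between genes. Htr2c lies higher in all 4 DBA/2J risperidone arrays than in the 4 DBA/2J control arrays, while Htr2b lies in or below the band throughout.

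The question put to these genes was whether risperidone changed their transcripts in either strain, and whether the strains differed. No receptor gene was called in any of the 6 comparisons. A gene was called where limma gave at least 1 of its probe sets a Benjamini-Hochberg adjusted p under 0.05, adjusted over all 45037 probe sets. In DBA/2J, 0 of the 9 genes were called for risperidone against control, beside a background of 0.0643% of all genes. In A/J, 0 of 9 were called, and the background was 0%. Over the mean of both strains the receptors again had 0 calls, with a background of 0.0526%, and the DBA/2J drug effect minus the A/J drug effect gave 0 of 9 with a background of 0%. Between strains, DBA/2J against A/J, 0 of 9 were called in risperidone mice (background 1.02%) and 0 of 9 in control mice (background 5.31%).

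At an unadjusted limma p under 0.05, and with each gene represented by its probe set with the highest mean, 2 receptors stood below that level for risperidone in DBA/2J, Htr2c and Htr4, where 10.2% of all genes did. In A/J 0 did, against 4.87% of all genes. In the mean of both strains 1 did (all genes 6.62%) and in the difference between the strains' drug effects 2 did (all genes 8.14%). In DBA/2J against A/J the count was 1 in risperidone mice (all genes 8.86%) and 5 in control mice (all genes 16.5%). The 1 was Htr4, and the 5 were Htr2b, Htr2c, Htr3a, Htr4 and Htr7. The median log2 difference of the 9 receptors was 0.04 for risperidone in DBA/2J, against 0.01 for all genes, and -0.02 in A/J, against -0.01 for all genes.

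**Figure D2:**
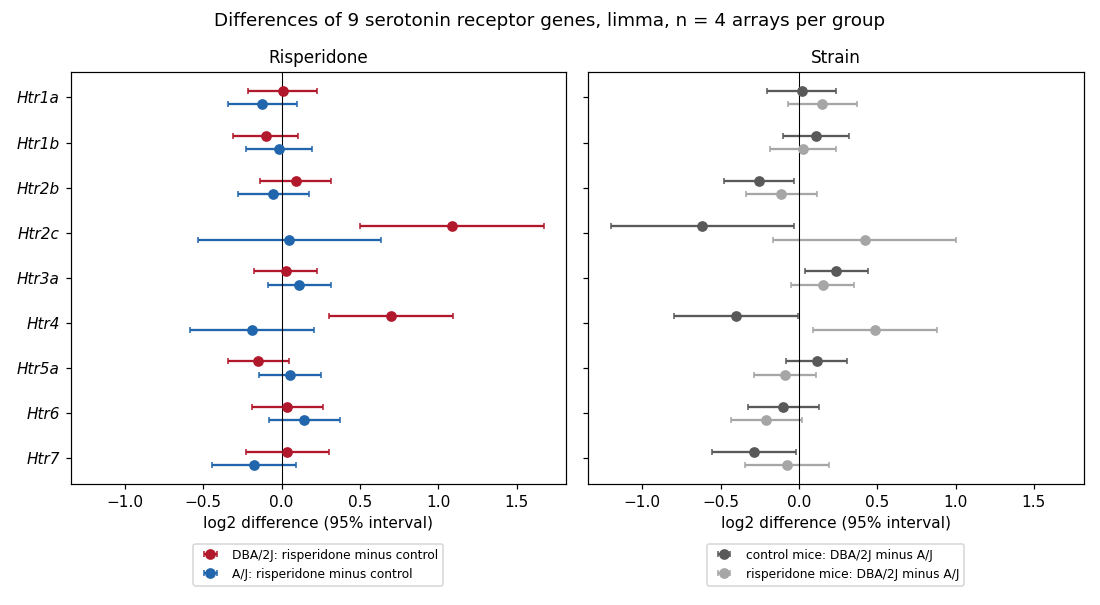
Log2 differences (horizontal axis) of the 9 receptor genes with 95% intervals from limma (n = 4 arrays per group), for risperidone minus control on the left and DBA/2J minus A/J on the right. The intervals of Htr2c (0.50 to 1.67) and Htr4 (0.30 to 1.09) in DBA/2J lie above 0, but neither difference passed after adjustment; all risperidone intervals of the other 7 genes include 0.

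Htr2c, the Gq-coupled receptor, showed the largest drug difference among the 9 genes, in DBA/2J mice. By Htr2c 1435513_PM_at, its level was 7.20, 6.10, 6.15 and 7.24 in the DBA/2J risperidone arrays, against 5.65, 5.32, 5.70 and 5.67 in the DBA/2J control arrays. The groups did not overlap, and risperidone replicates 1 and 4 lay about 1 log2 unit above replicates 2 and 3. The difference was 1.09 ± 0.28 (SE; 2.13-fold, 95% interval 0.50 to 1.67) and did not pass (limma, adjusted p = 0.200). For 4.31% of all genes the DBA/2J drug groups do not overlap, and Htr2c was the 1 receptor of 9 among them.

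The second Htr2c probe set, 1450477_PM_at, gave a like difference. Its level was 6.29, 5.59, 5.82 and 6.29 in DBA/2J risperidone arrays, against 4.97, 5.06, 5.56 and 5.06 in DBA/2J control arrays. These groups did not overlap either, by the narrow margin of 5.59 in a risperidone array over 5.56 in a control array. The difference was 0.83 ± 0.21 (SE, limma adjusted p = 0.200). Across the 16 arrays the deviations of the 2 probe sets from their group means correlated at r = 0.84, a description of 2 readings of the same RNA.

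In A/J no such difference was seen in Htr2c. Its level by the first probe set was 6.18, 5.96, 6.39 and 6.48 in A/J risperidone arrays, against 6.10, 5.67, 7.14 and 5.90 in A/J control arrays, where replicate 3 was high. The groups overlapped, and the difference was 0.05 with a 95% interval of -0.54 to 0.64. By the second probe set, whose groups also overlapped, it was -0.15 (-0.60 to 0.30). Without control replicate 3 it was 0.36 by the first probe set (limma adjusted p = 0.996) and 0.10 by the second. With risperidone replicate 3, the array without intermediate strain markers, as the one treated array, the first probe set gave 0.19. By the second probe set that array was at 5.83, slightly below the A/J control mean of 5.865. The DBA/2J drug effect minus the A/J drug effect was 1.04 ± 0.39 by the first probe set (SE, limma adjusted p = 0.464) and 0.98 ± 0.30 by the second (adjusted p = 0.402), and 0.72 and 0.73 without A/J control replicate 3 (adjusted p = 0.620 and 0.543). Without that array and DBA/2J risperidone replicates 1 and 4, a setting chosen after the arrays had been examined, they were 0.18 (adjusted p = 0.902) and 0.44 (adjusted p = 0.841), so a difference between the strains in the drug effect on Htr2c did not pass.

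The mean Htr2c level by the first probe set was 6.67 ± 0.63 in DBA/2J risperidone mice, 5.59 ± 0.18 in DBA/2J control mice, 6.25 ± 0.23 in A/J risperidone mice and 6.20 ± 0.65 in A/J control mice (SD, n = 4 each). From high to low the order was DBA/2J risperidone, A/J risperidone, A/J control and DBA/2J control, and none of the 3 neighbouring pairs passed the test. In control mice, DBA/2J minus A/J was -0.62 by the first probe set (limma adjusted p = 0.255) and -0.70 ± 0.21 by the second (SE, adjusted p = 0.0779), the lowest adjusted p of any receptor probe set in the 6 comparisons. Without A/J control replicate 3, the first value was -0.30 (adjusted p = 0.598) and the second -0.45 (adjusted p = 0.237). With the choroid plexus, thalamus and serotonergic marker means as covariates they were 0.12 and -0.24 (adjusted p = 0.851 and 0.679), so the first changed sign. All 9 thalamus markers had a negative difference in the same comparison (median -0.52, 2 called), beside a median of -0.0025 for all genes. So did all 5 oligodendrocyte markers (median -0.69, 3 called) and all 6 microglia markers (median -0.35, 2 called). Cortex markers were mixed, with 5 higher and 4 lower. The mean thalamus marker level was 5.58 to 5.79 in DBA/2J control arrays, against 5.62 to 7.03 in A/J control arrays, and that of oligodendrocyte markers was 7.93 to 8.40 in DBA/2J control arrays, against 8.72 to 9.39 in A/J control arrays. The part of the oligodendrocyte and microglia markers in the Htr2c difference was not tested.

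The 3 arrays with the highest Htr2c by the first probe set were set beside markers of other cell types. These markers were picked after the arrays had been examined, and they were not of the same type in all 3. Arrays with lower Htr2c also had high levels of such markers, as given below. These 3 arrays also had the lowest mean cortex marker levels of the 16 arrays. That mean was 8.497 in A/J control replicate 3, 8.527 in DBA/2J risperidone replicate 4 and 8.591 in DBA/2J risperidone replicate 1. In the other arrays it was 8.616 to 8.847. Ttr was at 11.97 in DBA/2J risperidone replicate 1 and at 6.84 to 8.69 in the other 3 arrays of that group, against 6.0 to 7.79 in DBA/2J control arrays. The mean level of all 12 choroid plexus and ependyma markers measured was 4.78 to 5.81 in DBA/2J risperidone arrays, against 4.59 to 4.85 in DBA/2J control arrays; 6 of the 12 were above the lower quartile in all arrays, and 1, Folr1, was never above it. Ttr was also at 11.06 to 11.90 in 5 A/J arrays (risperidone replicates 1, 2 and 3, control replicates 1 and 2), where Htr2c was at 5.67 to 6.39. Tph2, which encodes the serotonin-synthesizing enzyme of raphe neurons, was at 5.25 in DBA/2J risperidone replicate 4 and at 3.29 to 3.56 in the other 3, against 2.80 to 3.71 in DBA/2J control arrays. Tph2 was also at 4.97 in A/J control replicate 3, where Htr2c was at 7.14, and at 4.65 in A/J risperidone replicate 4, where Htr2c was at 6.48. In A/J control replicate 3 the thalamic transcription factor gene Tcf7l2 was at 8.98, its highest level of the 16 arrays. Tcf7l2 was also at 7.89 in A/J risperidone replicate 3, where Htr2c was at 6.39. In DBA/2J risperidone replicate 4 it was at 7.77, against 5.98 to 6.34 in the other arrays of that group. The thalamus markers were mixed in that array. Slc17a6 was at 8.24, its highest level, while Ramp3 was at 5.27, against 5.18 to 5.41 in the rest of the group.

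The 3 serotonergic markers measured had a mean of 3.70 to 5.03 in DBA/2J risperidone arrays, against 3.75 to 4.03 in DBA/2J control arrays, and 0 of the 3 were above the lower quartile in all arrays. The 9 thalamus markers had a mean of 5.60 to 6.11 in DBA/2J risperidone arrays, against 5.58 to 5.79 in DBA/2J control arrays; 6 of the 9 were above the lower quartile in all arrays, and Gbx2 was never above it. Without DBA/2J risperidone replicates 1 and 4, the Htr2c difference in DBA/2J was 0.54 by the first probe set (limma adjusted p = 0.738) and 0.54 by the second (adjusted p = 0.711). With the choroid plexus, thalamus and serotonergic marker means as covariates it was 0.59 (adjusted p = 0.616) and 0.54 (adjusted p = 0.632). Both of these settings were chosen after the arrays had been examined. The part of these markers in the full Htr2c difference was not tested beyond these values. Cortex markers were not among the covariates, and their part in the Htr2c difference was not tested.

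**Figure D3:**
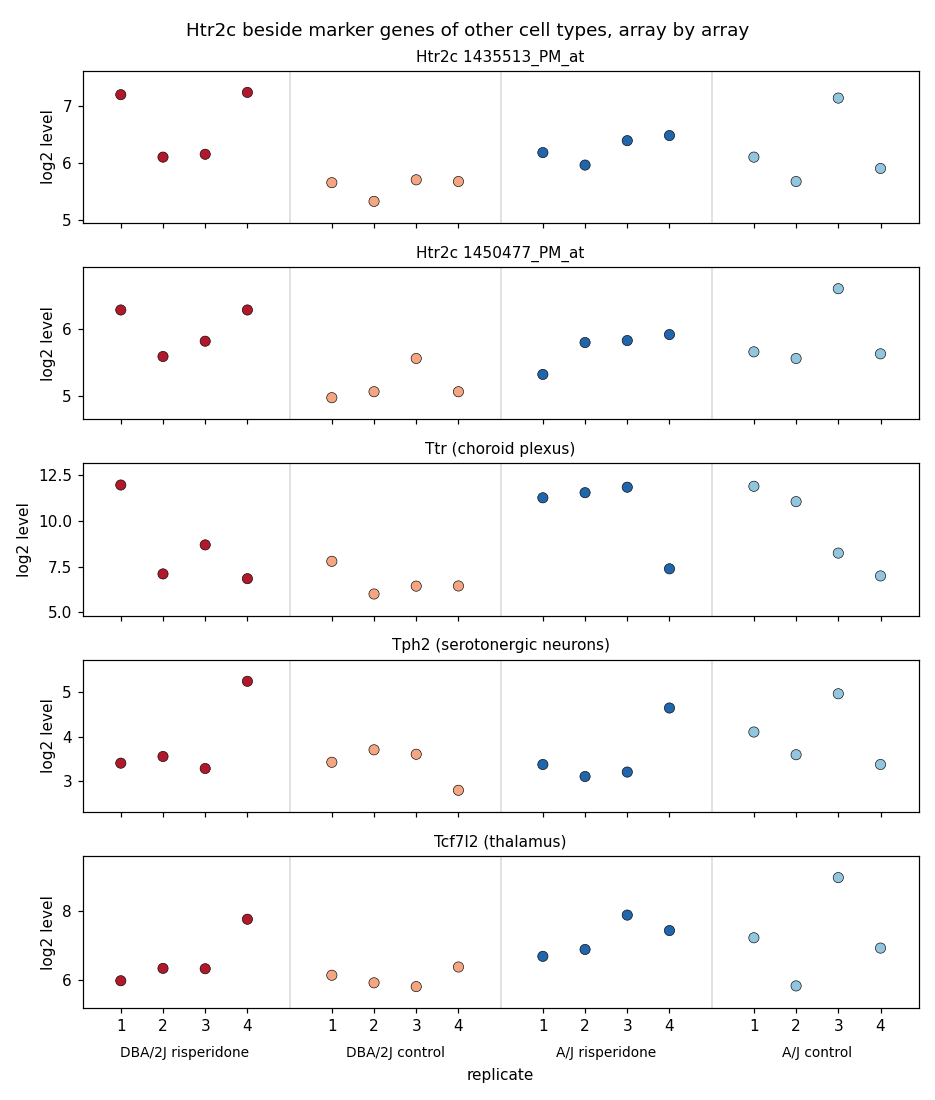
Log2 level (vertical axis) of both Htr2c probe sets and of Ttr, Tph2 and Tcf7l2, which mark the choroid plexus, serotonergic neurons and the thalamus, in each of the 16 arrays (horizontal axis, replicates 1 to 4 of each group). DBA/2J risperidone replicates 1 (Ttr 11.97) and 4 (Tph2 5.25, Tcf7l2 7.77) and A/J control replicate 3 (Tph2 4.97, Tcf7l2 8.98) are the 3 arrays with Htr2c above 7 by the first probe set.

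Across the 16 arrays, 36 correlations were computed between the 9 receptors and the mean levels of striatal, choroid plexus, thalamus and cortex markers, each as deviations from group means with permutation of arrays within groups. None passed after Benjamini-Hochberg adjustment over the 36. The most negative r for Htr2c was with cortex markers, r = -0.77 (permutation p = 0.00749, adjusted p = 0.263; Spearman rho = -0.81, permutation p = 0.00247, adjusted p = 0.0889), and r was -0.57 without the 2 arrays farthest from the median cortex score. With thalamus markers Htr2c had r = 0.71 (permutation p = 0.0285, adjusted p = 0.263; rho = 0.49, permutation p = 0.0985, adjusted p = 0.443) and r = 0.38 without the 2 farthest arrays, so that relation rests on them. With choroid plexus markers Htr2c had r = 0.10 (permutation p = 0.741, adjusted p = 0.953; rho = 0.04, permutation p = 0.916, adjusted p = 0.979), and r = -0.11 without the 2 farthest arrays. Htr7 had the same adjusted p of 0.263 with cortex markers (r = -0.59, permutation p = 0.0292) and with thalamus markers (r = 0.55, permutation p = 0.0292). Without the 2 farthest arrays these r were -0.42 and 0.42. With striatal markers Htr7 had r = 0.56, and 0.76 without the 2 farthest arrays (permutation adjusted p = 0.299 and 0.252). With the serotonergic marker mean, added after the arrays had been examined, none of the 9 receptors passed when adjusted over all 45 correlations. The permutation adjusted p was 0.164 for r of Htr1a (-0.66), Htr2c (0.66), Htr7 (0.64) and Htr5a (-0.62), and the lowest adjusted p for rho was 0.0731, of Htr1a (rho = -0.69). Without DBA/2J risperidone replicate 4 and A/J control replicate 3, the 2 arrays farthest from the median, r was -0.36, 0.34, 0.37 and -0.35 in the same order of genes, so these relations rest on those arrays.

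Htr2b, the other Gq-coupled receptor, by 1422125_PM_at was at 4.05, 4.28, 4.32 and 4.15 in DBA/2J risperidone arrays, against 4.27, 4.06, 4.30 and 3.81 in DBA/2J control arrays. It was at 4.27, 4.38, 4.34 and 4.26 in A/J risperidone arrays, against 4.22, 4.26, 4.40 and 4.58 in A/J control arrays. All groups compared overlapped, and the one array above its lower quartile was A/J control replicate 4.

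Htr4, a Gs-coupled receptor, had the second largest drug difference, again in DBA/2J. By Htr4 1443365_PM_at, the level was 5.53, 4.87, 5.65 and 4.86 in DBA/2J risperidone arrays, against 4.65, 4.59, 4.94 and 3.94 in DBA/2J control arrays. The groups overlapped, since control replicate 3 lay above risperidone replicates 2 and 4, and control replicate 4 was low. The difference was 0.70 ± 0.19 (SE; 95% interval 0.30 to 1.09) and did not pass (limma, adjusted p = 0.215). Without DBA/2J control replicate 4 and DBA/2J risperidone replicate 1 together it was 0.40 (adjusted p = 0.573), and without DBA/2J risperidone replicates 1 and 4 it was 0.73 (adjusted p = 0.674).

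In A/J, Htr4 by the same probe set was at 4.50, 4.81, 4.88 and 4.77 in risperidone arrays, against 4.85, 5.03, 4.90 and 4.94 in control arrays. The groups overlapped, with a difference of -0.19 (95% interval -0.59 to 0.21). The DBA/2J drug effect minus the A/J drug effect was 0.89 ± 0.27 (SE, limma adjusted p = 0.378), which did not pass. DBA/2J minus A/J was 0.49 in risperidone mice (adjusted p = 0.386) and -0.40 in control mice (adjusted p = 0.277). Without DBA/2J control replicate 4 the control value was -0.20 (adjusted p = 0.616).

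The second Htr4 probe set, 1427654_PM_a_at, below the lower quartile in every array, was at 4.31, 4.00, 4.11 and 3.95 in DBA/2J risperidone arrays, against 3.64, 3.56, 3.60 and 4.02 in DBA/2J control arrays. The groups overlapped at control replicate 4 alone. The difference was 0.39 ± 0.11 (SE, limma adjusted p = 0.250), and in A/J it was 0.04, where the groups overlapped. The deviations of the 2 Htr4 probe sets from group means correlated at r = -0.07 over 16 arrays, so their arrays were not high and low together.

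The other 2 Gs-coupled receptors differed little between drug and control. Htr6 by 1421757_PM_at averaged 4.99 ± 0.14 in DBA/2J risperidone mice and 4.96 ± 0.15 in DBA/2J control mice, and 5.20 ± 0.15 in A/J risperidone mice and 5.06 ± 0.18 in A/J control mice (SD, n = 4 each). Its drug difference was 0.04 in DBA/2J (95% interval -0.19 to 0.27) and 0.15 in A/J (-0.08 to 0.37). Htr7 by 1435332_PM_at averaged 5.99 ± 0.23 in DBA/2J risperidone mice and 5.96 ± 0.21 in DBA/2J control mice, and 6.07 ± 0.15 in A/J risperidone mice and 6.24 ± 0.18 in A/J control mice. Its drug difference was 0.04 in DBA/2J (95% interval -0.23 to 0.30) and -0.17 in A/J (-0.44 to 0.09). With A/J risperidone replicate 3 as the one treated array, the A/J difference was -0.04 for Htr6 and 0.01 for Htr7, each with the opposite sign to that of all 4 arrays. By the second Htr7 probe set, 1422235_PM_at, the drug difference with all arrays was 0.10 in DBA/2J and -0.06 in A/J.

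Between the strains, Htr7 by 1435332_PM_at was at 5.96, 6.12, 6.09 and 5.65 in DBA/2J control arrays, against 6.21, 6.13, 6.50 and 6.13 in A/J control arrays. The groups did not overlap, but only by 0.01, and the difference of -0.29 did not pass (limma, adjusted p = 0.243). It was -0.19 without DBA/2J control replicate 4 (adjusted p = 0.506) and -0.07 with the 3 marker means as covariates (adjusted p = 0.859). The second Htr7 probe set, 1422235_PM_at, had the opposite sign, 0.09 (adjusted p = 0.774), and the deviations of the 2 Htr7 probe sets correlated at r = 0.07.

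Of the receptors coupled to inhibitory G proteins, Htr1a, which serves as an autoreceptor on raphe neurons, had 1 pair of groups that did not overlap. By 1438710_PM_at it was at 6.51, 6.55, 6.55 and 6.58 in A/J risperidone arrays, against 6.64, 6.73, 6.61 and 6.71 in A/J control arrays. The difference was -0.12 ± 0.10 (SE, limma adjusted p = 0.982), and its second probe set, 1450219_PM_at, differed by 0.06. Htr1a was the 1 receptor of 9 whose A/J drug groups did not overlap, where 4.31% of all genes did not. Replicates 1, 2 and 4 of A/J risperidone are the arrays with intermediate strain markers, and without them the Htr1a difference was -0.12 by the first probe set and -0.12 by the second. In DBA/2J, Htr1a averaged 6.70 ± 0.23 in risperidone mice and 6.69 ± 0.17 in control mice by the first probe set (SD, n = 4 each). The second differed by 0.11 there.

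Htr1b, a terminal autoreceptor found also on striatal projection neurons, by 1422288_PM_at averaged 6.73 ± 0.07 in DBA/2J risperidone mice and 6.84 ± 0.24 in DBA/2J control mice, and 6.71 ± 0.10 in A/J risperidone mice and 6.72 ± 0.04 in A/J control mice (SD, n = 4 each). The larger spread in DBA/2J control mice came from replicate 4, at 7.20. Its drug difference was -0.10 in DBA/2J (95% interval -0.31 to 0.11) and -0.02 in A/J (-0.23 to 0.19). Without DBA/2J control replicate 4 the Htr1b difference in DBA/2J was 0.02 (limma adjusted p = 0.971). Htr5a by 1443276_PM_at averaged 5.70 ± 0.15 in DBA/2J risperidone mice and 5.84 ± 0.17 in DBA/2J control mice, and 5.79 ± 0.08 in A/J risperidone mice and 5.73 ± 0.07 in A/J control mice. Its drug difference was -0.15 in DBA/2J (95% interval -0.34 to 0.05) and 0.06 in A/J (-0.14 to 0.25). By the second Htr5a probe set, 1422207_PM_at, it was -0.21 in DBA/2J (-0.45 to 0.03, limma adjusted p = 0.514) and 0.02 in A/J. The deviations of the 2 Htr5a probe sets from group means correlated at r = -0.06.

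Htr3a, the channel subunit, by 1418268_PM_at did not overlap between the strains in control mice. It was at 6.19, 5.86, 5.77 and 5.91 in DBA/2J control arrays, against 5.59, 5.68, 5.75 and 5.76 in A/J control arrays. The lowest DBA/2J value lay 0.01 above the highest A/J value, and the difference of 0.24 ± 0.10 did not pass (SE, limma adjusted p = 0.198). Without DBA/2J control replicate 1, at 6.19, it was 0.15 (adjusted p = 0.386). Htr3a and Htr7 were the 2 receptors of 9 whose control groups did not overlap between strains, against 9.13% of all genes, and in risperidone mice 0 of 9 did not overlap, against 7.86% of all genes. The Htr3a drug difference was 0.03 in DBA/2J (95% interval -0.17 to 0.23) and 0.11 in A/J (-0.09 to 0.31). With A/J risperidone replicate 3 as the one treated array, the Htr3a difference in A/J was 0.26 (limma adjusted p = 0.999).

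Over the 10 probe sets of the 7 receptors other than Htr2c and Htr4, the drug differences lay between -0.21 and 0.15 in the 2 strains, and no 95% interval went below -0.45 or above 0.37. The precision follows from 4 arrays per group. The half-width of the 95% interval of a difference between 2 groups was 0.20 for Htr5a 1443276_PM_at, the narrowest of the 14 probe sets, and 0.59 for Htr2c 1435513_PM_at, the widest.

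Other genes of the serotonin system were described from lists. Of the 5 other serotonin receptor genes listed, Htr1d, Htr1f, Htr3b and Htr5b were measured, and 0 of these 4 were called in any comparison. The one with the smallest p for risperidone in DBA/2J was Htr3b, at -0.16 (limma adjusted p = 0.691), and in A/J it was Htr1d, at 0.27 (adjusted p = 0.838). Between strains the smallest were Htr1f in risperidone mice, at 0.11 (adjusted p = 0.834), and Htr1d in control mice, at 0.31 (adjusted p = 0.144).

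Of 13 genes of serotonin synthesis and clearance, 10 were measured and 0 were called in any comparison. In DBA/2J 9 of the 10 had a positive drug difference and 1 a negative one, with a median of 0.23 beside 0.01 for all genes. Pts, which makes a precursor of the hydroxylase cofactor tetrahydrobiopterin, had the smallest p there, at 0.39 (limma adjusted p = 0.309). In A/J 1 of the 10 was positive, 8 were negative and Slc6a4, the serotonin transporter gene, was at 0, with a median of -0.09, and Tph2 had the smallest p, at -0.43 (adjusted p = 0.988). Tph2 belongs to this list and to the serotonergic markers, so the level of Tph2 in DBA/2J risperidone replicate 4 enters both. Tph2 was above the lower quartile in 3 of 16 arrays and Slc6a4 in 2, so most of their values lie at the low end. In A/J control replicate 3, Tph2 was at 4.97 and Slc6a4 at 5.04. In the other A/J control arrays they were at 3.38 to 4.11 and at 3.66 to 4.10, so their A/J differences lean on that array.

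Of 22 genes that carry or modify receptor signals, 21 were measured, and 0 were called for risperidone in either strain. S100a10, an adaptor that binds the receptor encoded by Htr1b and increases it at the cell surface, had the smallest p in DBA/2J, at 0.41 ± 0.09 (SE, limma adjusted p = 0.165), and was at 0.15 in A/J (adjusted p = 0.951). In control mice, DBA/2J against A/J, 3 of the 21 were called, 1 higher and 2 lower, where 5.31% of all genes were called. Each passed by a probe set other than its own with the highest mean. Gnal, the stimulatory G protein subunit of striatal neurons, was lower by a probe set at -0.53 (limma adjusted p = 0.0296), while its highest-mean probe set was at -0.35 (adjusted p = 0.127). Plcb1, a phospholipase C activated by Gq, was lower by a probe set at -0.46 (limma adjusted p = 0.0184), while its highest-mean probe set was at -0.05 (adjusted p = 0.880). Arrb2, which encodes a beta-arrestin that desensitizes receptors, was higher by 1 probe set (0.59, adjusted p = 0.00596), while its probe set with the highest mean was at -0.15 and did not pass, so its probe sets disagree.

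For the 7 receptors above the lower quartile in every array, Htr2b and Htr4 being left out, the most similar genes across arrays were found by the correlation of deviations from group means over 16 arrays, among 12546 other genes above the lower quartile in every array. For Htr2c they were Lhfpl3 (r = 0.97), Ttc28 (0.91) and Gaa (0.89). For Htr7 they were Tac1 (0.94), the substance P precursor of striatal neurons, Lap3 (0.92) and Gpr165 (0.92). For Htr1a the nearest was Ccnd2 (0.95), for Htr1b Tfap4 (0.92), for Htr5a Myh11 (0.89), for Htr6 Uty (0.88) and for Htr3a Colgalt1 (0.83). The highest of so many correlations over 16 arrays is large by selection, and these values are a description of the arrays.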

How the data were processed

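Striatal RNA of 16 mice was measured on Affymetrix mouse arrays. The deposited values are log2 levels per probe set that the authors normalized with RMA, per the submitters' processing notes (version not given in the sources used here); scanning and filters are not given. No column of per-sample values was left unmapped (0). The file holds 45141 probe sets; after removal of the 104 array controls, all 45037 others entered the tests, whatever their level. Gene names came from the platform annotation, in which 28898 probe sets name 1 gene, 551 several and 15588 none. Groups follow the sample titles; 3 DBA/2J risperidone arrays share a description.

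Group means over all 16 arrays were fitted with limma 3.58.1 (lmFit, eBayes) in R 4.3.3, with two-sided tests and Benjamini-Hochberg adjustment over all probe sets of a comparison. The script was tested on simulated data. A gene is given by its probe set with the highest mean, and SE is limma's. Correlations used 100000 permutations within groups (Python 3.11.15), and figures matplotlib 3.10.9. The DBA/2J share is the median position of an array between the strains' control means over probe sets with a log2 difference of at least 1.5, a level of at least 7 and an adjusted p under 0.01.

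The members, lists and tests were chosen with earlier results of these data known. All member probe sets are named; of each list, genes called in a comparison (up to 3) or otherwise the one with the smallest p. Nothing states that replicates came from separate litters or extraction days, so p-values measure the spread between these samples. Alternatives were a second quantile normalization, median centring, filters on low levels, eBayes options, array weights, the replicate number as a block, the compared arrays alone, averaging the probe sets of a gene, leaving out arrays, and marker scores as covariates.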

Additional observations from a re-analysis of the deposited data

Results flagged for a closer look

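Of 56 groups of 4 arrays examined (14 probe sets in 4 groups), 6 held an array far from the other 3 by Dixon's test at its 95% critical value, and chance gives about 1 in 20 groups. Htr1b was at 7.20 in DBA/2J control replicate 4, against 6.69 to 6.75 in the other 3 arrays of that group, and Htr5a 1422207_PM_at was at 5.80 in the same array, against 5.32 to 5.36. Htr1b was at 6.67 in A/J control replicate 2, against 6.74 to 6.75, a gap of under 0.1. Htr2c 1435513_PM_at was at 5.32 in DBA/2J control replicate 2, against 5.65 to 5.70. Htr2c 1450477_PM_at was at 5.56 in DBA/2J control replicate 3, against 4.97 to 5.06, and at 6.61 in A/J control replicate 3, against 5.56 to 5.66. Their causes were not tested.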

How the results depend on the processing

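No receptor gene was called for risperidone, for the difference between the strains' drug effects, or for strain in risperidone mice under any alternative run. In control mice, DBA/2J against A/J, the count of 0 became 1 with array weights (Htr4 1427654_PM_a_at, -0.38, limma adjusted p = 0.0249) and 1 without DBA/2J control replicate 4 and DBA/2J risperidone replicate 1 (the same probe set, -0.37, adjusted p = 0.0321). Leaving out 1 array at a time gave 0 to 1, the 1 being Htr2c 1450477_PM_at without DBA/2J control replicate 3 (-0.84, adjusted p = 0.0445). With choroid plexus, thalamus and serotonergic scores as covariates, an alternative chosen after seeing the data, Htr2c in control mice changed sign to 0.12 (adjusted p = 0.851). Without A/J risperidone replicates 1, 2 and 4, the count for A/J stayed 0, but 1 risperidone array is left and is assumed to vary like the other groups. The cause of these changes was not tested.

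For Htr2c 1435513_PM_at in DBA/2J, the drug difference lay between 0.54 and 1.28 (adjusted p 0.101 to 0.738) over 28 alternatives, and for Htr4 1443365_PM_at between 0.40 and 0.83 (0.121 to 0.694). Of 84 differences (14 probe sets in 6 comparisons), 36 changed sign under some alternative; the largest of these was Htr2c in control mice, DBA/2J against A/J (-0.62), and neither drug difference named here changed sign.

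Same-numbered arrays correlated at over 0.1 in 1 or 2 of 4 pairs per comparison, as deviations from group means. Their mean r was above that of other-numbered arrays in each comparison of 2 groups. For risperidone in DBA/2J it was 0.07 against -0.02, and 3 of 4 risperidone arrays correlated best with the control array of their own number. Whether same-numbered arrays shared a batch or a day was not tested. With the replicate number as a block, Htr2c in DBA/2J was 1.09 (adjusted p = 0.143) and no receptor was called (0 in each comparison).

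With levels as deposited in place of deviations from group means, 1 receptor correlated with a marker score, Htr2c with cortex (r = -0.83, adjusted p = 0.0036); that r includes the differences between groups. With the array median as the threshold, 3 receptor probe sets lay above it in all arrays, in place of 11. Signal near background limits Htr2b and Htr4.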
